A study of Mus musculus with 5 samples.

Results

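γH2AX in wild-type cells was set against DNA that had not been immunoprecipitated. The 2 libraries compared, of 5 in the series, were the γH2AX chromatin immunoprecipitation (ChIP) library of Rb+/+ mouse embryonic fibroblasts and the input library. They were chosen by their labels, and the Rb+/+ list of peaks was taken along with them, of which 3609 of 3857 peaks lie on autosomes. Rb+/+ cells carry 2 normal copies of Rb, which encodes the retinoblastoma tumour suppressor. Both libraries came from primary fibroblasts that were proliferating at passage 4, and no antibody was used for the input. The genotype of the input is not given in the sources used here, nor are the strain, the age of the embryos or how many embryos the cells came from. With 1 library a side there is no replicate check. The values describe these 2 libraries, and the 95% intervals in parentheses cover counting error only.

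H2AX is a variant of the core histone H2A. Kinases of the DNA damage response phosphorylate its tail at broken DNA and at stalled replication forks, and the phosphorylated form, γH2AX, spreads along the chromatin on either side and serves as a platform for repair factors. Repeats are a place of interest for it because long arrays of like sequence, such as the satellites at mouse centromeres, are hard to replicate and can recombine with each other. The comparison with input asks where γH2AX lay in unperturbed wild-type cells, once the amount of each kind of DNA in the sequenced material is taken into account. The files give no gene values, so the labelled cell type could not be set against marker genes.

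Read counts deposited by the authors covered 12 classes, among them a line for the unique genome, and 13 satellite families. The total was 17180437 counts in the input and 17896985 in Rb+/+. A share is a count over that total, and a ratio is the Rb+/+ share over the input share. Repeats together took 11.3% of the counts in the input and 10.2% in Rb+/+, a ratio of 0.903 (0.901 to 0.905). The unique genome rose from 88.7% to 89.8%. Its ratio was 1.01, and with satellites left out of the total it was 0.999 (0.999 to 1.00), so that the unique genome lay above the input on the first scale and not on the second.

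Satellites, the tandem arrays that make up centromeric and pericentromeric heterochromatin, were the class with the lowest ratio. They held 678865 counts in the input and 484804 in Rb+/+. That is a share of 3.95% (3.94 to 3.96) in the input against 2.71% (2.701 to 2.72) in Rb+/+, or 3951 against 2709 in every 100000 counts. The share fell by 1.24 percentage points, and a single family made up that difference. GSAT_MM, the major satellite that fills mouse pericentromeres, had 640132 counts in the input and 443992 in Rb+/+, and its share fell by 1.245 percentage points, from 3.73% to 2.48%. All other satellite families together had 38733 counts in the input and 40812 in Rb+/+, a ratio of 1.01 (0.998 to 1.03) that includes 1. The lower satellite level in Rb+/+ was thus a lower level of the major satellite. That sum holds families on both sides of the input. SATMIN, the minor satellite, was below it, and without SATMIN as well the rest stood at 1.05 (1.04 to 1.07).

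The size of a fold, at least 1.1 in either direction, was used in place of a test. Among the 12 classes 1 was higher by that much (8.33%) and 3 were lower (25%). This split depends on the denominator. Over repeat counts alone 4 of 11 classes were higher and 1 lower, and with the median class ratio set to 1 the split was 2 higher and 3 lower. Pseudogene was higher and satellites were lower on each of these scales. As a share of all counts, the class that was higher is Pseudogene, with 1961 counts in the input and 12486 in Rb+/+. This is 11.4 (10.9 to 11.9) in the input against 69.8 (68.5 to 71.0) in Rb+/+ of every 100000 counts, and the ratio was 6.11 (5.83 to 6.41). The sources used here do not say which sequences the authors put in this class. In absolute terms its gain was small, at 58.4 in every 100000 counts, while GSAT_MM fell by 1245. The 3 lower classes were satellites, other transposable elements and the class named other. Other transposable elements went from 2884 to 2626 counts, a ratio of 0.874 (0.829 to 0.922). The class named other went from 3666 to 3274 counts, a ratio of 0.857 (0.818 to 0.899).

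**Figure D1:**
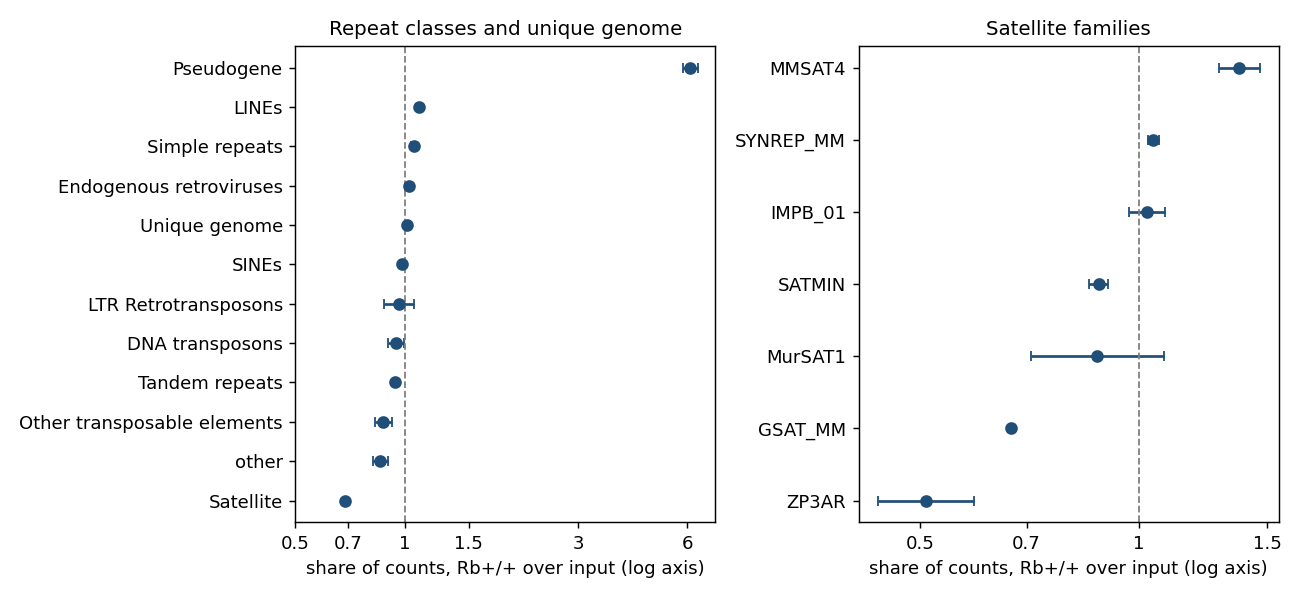
Share of counts in Rb+/+ over that in the input, on a log axis, for the 12 classes (left) and the 7 satellite families with more than 3 counts (right). Points are ratios and bars 95% counting intervals (1 library a side); Pseudogene stands apart at 6.11, and Satellite (0.686) and ZP3AR (0.509) are the lowest of their panels.

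Transposable elements, the mobile sequences that fill much of the mouse genome, lay close to the input and slightly above it as a group. Their 6 classes summed to 774052 counts in the input and 846990 in Rb+/+, a ratio of 1.050 (1.047 to 1.054). Most of that gain was in LINEs, the autonomous retrotransposons without long terminal repeats, which took 183 more of every 100000 counts in Rb+/+ than in the input, out of 227 more for the 6 classes. LINE counts went from 335363 to 382167, a ratio of 1.09 (1.09 to 1.099). Endogenous retroviruses, the remains of germline retroviral insertions, went from 363778 to 388771 counts, a ratio of 1.03 (1.02 to 1.03). SINEs are short elements that depend on LINE enzymes to move. They did not follow LINEs, with 68014 counts in the input, 69454 in Rb+/+ and a ratio of 0.980 (0.970 to 0.991). There were 4931 LINE counts for every 1000 SINE counts in the input and 5502 in Rb+/+, which is 1.12 times as many and does not depend on the total chosen. Its interval (1.11 to 1.12) covers the counting error of LINEs alone. It is too narrow, because SINEs have the fewer counts and were taken as fixed.

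The small transposon classes were at or under the input. DNA transposons, which move by excision, had 3192 counts in the input and 3148 in Rb+/+, a ratio of 0.947 (0.901 to 0.995). LTR retrotransposons had 821 and 824 counts, and their ratio of 0.963 (0.875 to 1.06) was the one among the 12 whose interval included 1. Over all 12 classes, 5 intervals lay above 1 and 6 below, but 4 of the ratios were within 5% of 1. At this depth intervals on large classes are so narrow that a few percent already exceeds counting error.

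Simple repeats and tandem repeats moved in opposite directions. Simple repeats, runs of short motifs, went from 40282 to 44374 counts, a ratio of 1.06 (1.04 to 1.07). Tandem repeats, as the authors named the class, went from 435783 to 427842 counts, a ratio of 0.942 (0.939 to 0.946). For every 1000 tandem repeat counts there were 92.4 simple repeat counts in the input and 104 in Rb+/+, 1.12 times as many (1.11 to 1.14). Among repeat counts alone, the share of satellites went from 35.1% in the input to 26.6% in Rb+/+, while that of LINEs went from 17.3% to 21.0%, that of endogenous retroviruses from 18.8% to 21.4% and that of tandem repeats from 22.5% to 23.5%. On this scale LINEs (1.21), simple repeats (1.17) and endogenous retroviruses (1.14) joined Pseudogene (6.77) past 1.1-fold. Other transposable elements (0.968) and the class named other (0.949) were no longer 1.1-fold lower, which left satellites alone there, at 0.759. SINEs and tandem repeats, which lay under the input as shares of all counts, were above it among repeats, at 1.09 (1.07 to 1.097) and 1.04 (1.04 to 1.05). DNA transposons stood at 1.05 (0.998 to 1.101), an interval that includes 1.

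Satellite families differed from each other in their ratios. Of the 7 families with more than 3 counts, 1 was at least 1.1-fold higher in Rb+/+ (14.3%) and 4 were at least 1.1-fold lower (57.1%). Within satellite counts alone, where GSAT_MM sets the total, the split turned to 5 higher and 1 lower, and over repeat counts it was 3 higher and 2 lower. GSAT_MM was among the lower ones at 0.666 (0.663 to 0.668), and so was SATMIN, the minor satellite on which the mouse kinetochore forms. SATMIN went from 9038 to 8279 counts, a ratio of 0.879 (0.854 to 0.906). As a share of all counts, the minor satellite was therefore much nearer to the input than the major one. There were 14.1 SATMIN counts for every 1000 GSAT_MM counts in the input and 18.6 in Rb+/+, 1.32 times as many (1.28 to 1.36). When shares were taken within the satellite class, SATMIN was instead above the input, at 1.28 (1.245 to 1.32).

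ZP3AR had the lowest ratio of the families, on few counts. It went from 475 counts to 252, a ratio of 0.509 (0.437 to 0.593). MurSAT1, the last of the 4 lower families, had 183 and 167 counts, and its ratio of 0.876 (0.710 to 1.08) did not differ from 1 beyond counting error. The family that was higher was MMSAT4, with 1542 counts in the input, 2205 in Rb+/+ and a ratio of 1.37 (1.29 to 1.46). SYNREP_MM, the second largest family, went from 25142 to 27395 counts, a ratio of 1.05 (1.03 to 1.06). IMPB_01 had 2352 and 2512 counts and a ratio of 1.03 (0.969 to 1.08). Within satellite counts alone MMSAT4 stood at 2.00 times the input, SYNREP_MM at 1.53, IMPB_01 at 1.496 and MurSAT1 at 1.28 (1.04 to 1.58), and ZP3AR, at 0.743, was the family that was still lower by 1.1-fold. Set against GSAT_MM, MMSAT4 was 2.06 times (1.93 to 2.200) and SYNREP_MM 1.57 times (1.54 to 1.60) as frequent in Rb+/+ as in the input. The families TAR1, SVA2, ZP3AR_MM, SQR1_MM, SQR2_MM and SQR4_MM had 0 or 1 count in each library. A count of 0 allows up to 3 counts, which is a share of 1.75e-05% in the input and 1.68e-05% in Rb+/+, and no ratio is given for them.

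The authors' list for Rb+/+ held 3609 peaks on the 19 autosomes, in coordinates of the build mm9. They were short compared with the broad domains that γH2AX is known to form. These are widths of peaks as the caller listed them, and how far γH2AX spread along the chromatin was not measured. The median width was 391 bp, with quartiles at 285 and 502 bp, and the narrowest peak was 198 bp. Only 6 of the 3609 peaks were wider than 1000 bp and 12 were wider than 750 bp. Together they covered 1437 kb. The score that the authors gave each peak ranged from 50.34 to 3100, with a median of 72.03 and quartiles at 65.75 and 90, so most peaks lay near the bottom of the range. The number of peaks with a score of 100 or more was 786 (21.8%, 20.4 to 23.2). It was 31 for 200 or more and 7 for 1000 or more.

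Narrow peaks had the higher scores, apart from the few at the very top. Across the 3609 peaks the rank correlation of width and score was -0.78. This is a description of peaks in 1 list, which share a library and a caller. As the scores are read below, beyond 394 bp a wider peak with the same number of reads scores lower. Part of the correlation is thus built into the score. Peaks under 250 bp had a median score of 127.85, and 96.8% of them scored at least 100. Among peaks given a read number below, none with 5 reads or fewer was narrower than 263 bp. Such a peak under 250 bp thus had at least 6 reads and a score of at least 108.63. The high scores of narrow peaks cannot be told apart from which peaks the caller listed. Peaks from 500 to 750 bp had a median of 64.58, and 2.08% of them scored at least 100. The order turned at the top, where the 9 peaks with a score of 300 or more had a median width of 689 bp.

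The scores took few values. There were 805 distinct scores among 3609 peaks, and 4 of these, 72.03, 90, 108.63 and 127.85, were shared by 402, 313, 247 and 197 peaks. They equal -10 log10 of the Poisson probability of more than k reads, for k of 4, 5, 6 and 7 and a mean of 0.0960 reads. The same mean gives 6 further values for k of 8 to 13, up to 252.28, and each of them was found in the list, the largest deviation over all 10 being 0.0038. These 10 scores belonged to 1270 peaks (35.2%), none wider than 393 bp. For wider peaks the score was matched when the mean was scaled to the width beyond 394 bp. With that window, 65.4% of the 919 peaks over 500 bp had a score within 0.02 of a computed one, against 6.31% with the next best of the windows from 300 to 500 bp.

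In this way a read number k was obtained for 2477 of the 3609 peaks (68.6%). It was 3 for 87 peaks, 4 for 1369, 5 for 414, 6 for 289 and 7 for 206, and between 8 and 13 for the other 112. The median was 4 reads. Peaks of 4 reads were 316 to 638 bp wide with a median of 453 bp, and peaks of 7 reads had a median of 216 bp. No header states the formula, and if the caller took the chance of k or more reads instead, each number would be 1 higher. Most peaks for which the number could be read thus rest on a handful of reads. A mean of 0.0960 reads in 394 bp is 244 reads per Mb, or 580499 over the 2383 Mb that the autosomal peaks span. The unique genome line of the count table holds 16077215 counts, 27.7 times as many. The sources used here do not say which reads entered the peak calling, and the reason for the gap was not tested.

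**Figure D2:**
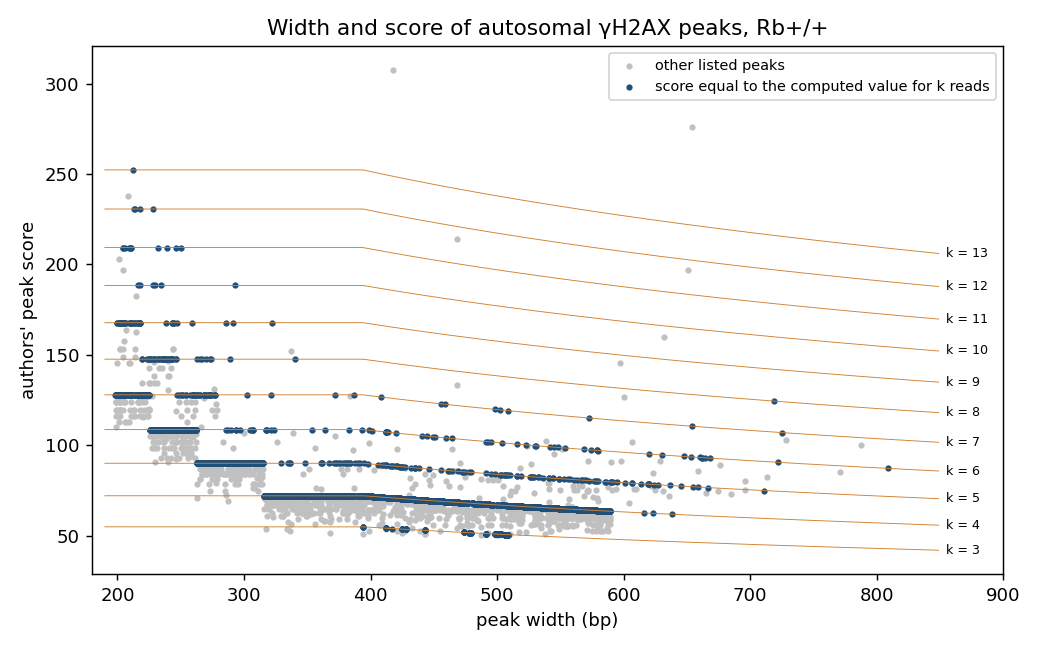
Width (bp) and the authors' score of autosomal Rb+/+ peaks up to 850 bp and a score of 320, 1 point a peak. Lines are the scores computed for k reads at a mean of 0.0960 reads in 394 bp; 2477 of all 3609 autosomal peaks (dark points where shown) lie on a line, most of them on that for k = 4.

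The other 1132 autosomal peaks were not matched by the flat mean. Of these, 270 shared 8 scores, each of which was given its own k and its own mean, between 1.13 and 1.41 times the flat one. A mean chosen score by score can give any score, so these 8 are no check on the reading of the scores. The remaining 862 included all 12 of the highest-scoring peaks, and no matched peak scored above 252.28. Matched and unmatched peaks had median widths of 387 and 398 bp and median scores of 72.03 and 68.05. A score of 100 or more was more frequent among the matched, at 23.6% against 17.8%, while the highest scores, up to 3100, were among the unmatched.

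**Figure D3:**
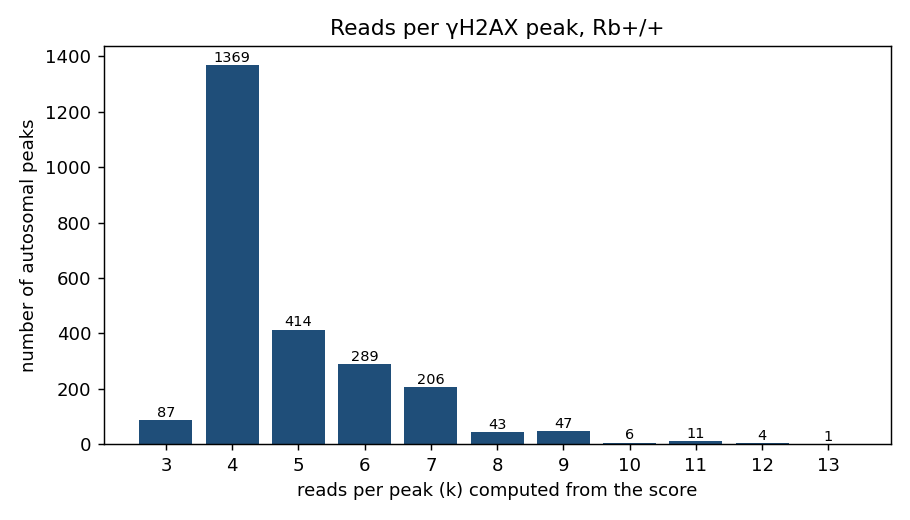
Number of autosomal Rb+/+ peaks (vertical axis) by the number of reads k computed from the score (horizontal axis), for the 2477 peaks that gave one. The bar at 4 reads, with 1369 peaks, holds more than all other bars together.

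At the top of the list stood a few places with scores far above the rest. Of the 10 highest peaks, 3 were on chromosome 2, 4 on chromosome 9 and 3 elsewhere. The highest was at chr2:98506259-98507607, 1349 bp wide with a score of 3100. It belonged to a cluster of 4 peaks within 5350 bp, whose other members of the top 10 were chr2:98502258-98503261 (1955.59) and chr2:98505075-98505539 (1269.88). The peak between these, at chr2:98503817-98504317, scored 82.35, so that 1 weak peak lay among 3 strong ones. The second peak of the list, at chr17:39979826-39985941, scored 2233.31 and was the widest at 6116 bp.

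Near the centromeric end of chromosome 9 lay a second cluster, with 12 peaks between 2999918 and 3036595. Peaks covered 9888 of its 36678 bp, and 7 of the 12 scored at least 100. The highest, at chr9:3023071-3024847, scored 1266.36 over 1777 bp. The top 10 also took chr9:3001942-3002630 (492.31) and chr9:3024929-3026036 (289.19) from this cluster. The scores in the cluster reached down to 50.34, the lowest of any autosomal peak. The 3 other peaks of the top 10 were isolated, at chr6:103598949-103599394 (1158.79), chr9:35112647-35113256 (1111.8) and chr12:3109795-3110212 (307.57). Of the 5 widest peaks 4 were in the top 10, and the other, chr9:2999918-3001614, was in the chromosome 9 cluster with a width of 1697 bp and a score of 270.17. These places were not set against genes or repeats of the build mm9, and input reads over them were not analysed here. A stretch that collects reads in any library cannot be told apart from a site of γH2AX on these files.

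**Figure D4:**
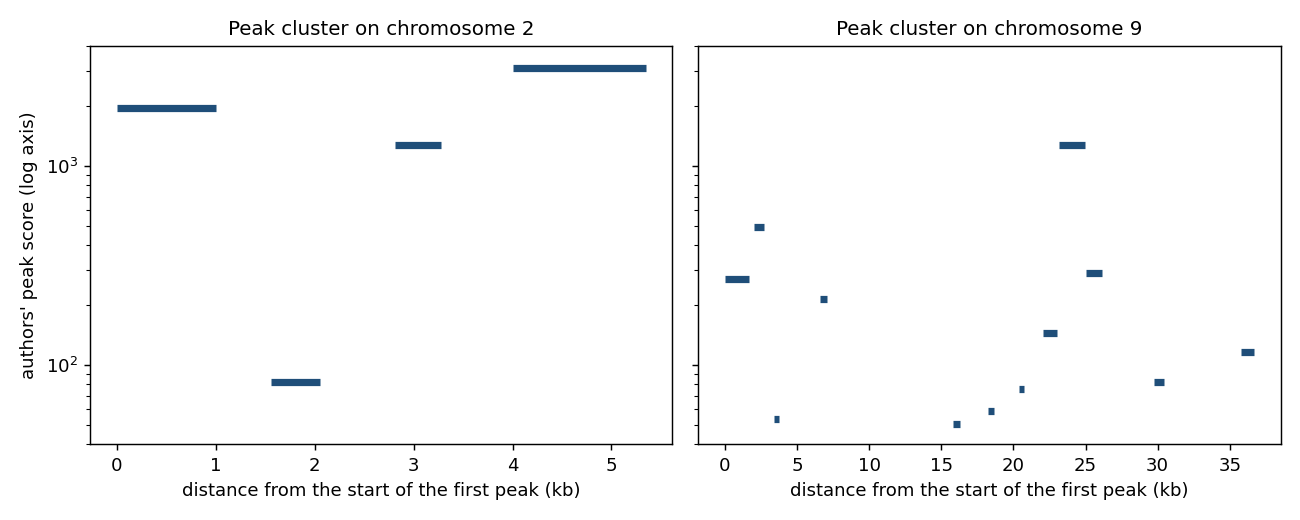
The 4 peaks of the chromosome 2 cluster and the 12 of the chromosome 9 cluster, by distance in kb from the start of the first peak and by the authors' score (log axis). Each bar spans 1 peak; both clusters hold scores over 1000 and scores under 100.

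Outside these places, the highest score was 276.12, at chr11:108872876-108873529, which was 654 bp wide. The other scores of at least 200 outside them belonged to narrow, scattered peaks. Of the 31 peaks with a score of at least 200, 18 were at most 250 bp wide, with scores from 203.16 to 252.28, and they lay on 12 different autosomes. The highest of them, at chr7:62458709-62458920, was 212 bp wide, and its score is that of 13 reads. Outside the 2 clusters peaks seldom lay close together. Over the whole list the median distance to the next peak was 446 kb, and 14 of 3590 distances were within 1 kb.

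Peaks were spread over the autosomes at 1.51 per Mb (1.47 to 1.56) of the span from the first to the last peak. Between autosomes the density varied by 1.55 times at most. The 3 densest were chromosome 19 with 108 peaks at 1.88 per Mb (1.55 to 2.27), chromosome 3 with 274 at 1.76 (1.56 to 1.98) and chromosome 9 with 209 at 1.74 (1.51 to 1.99). The 209 include the 12 peaks of the chromosome 9 cluster, on which its place among the densest depends. The 3 sparsest were chromosome 17 with 110 peaks at 1.21 (0.997 to 1.46), chromosome 12 with 143 at 1.22 (1.03 to 1.44) and chromosome 14 with 148 at 1.27 (1.07 to 1.49). The intervals of chromosomes 3 and 19 lay above the density of all autosomes, and those of chromosomes 12, 14 and 17 lay below it. These 19 intervals were not adjusted for their number, and that of chromosome 19 cleared 1.51 narrowly. There is no peak list of the input to set the densities against. Widths and scores of peaks did not differ between autosomes in the same way, though median scores could hardly vary, since 402 peaks shared the score 72.03. Median widths ran from 373 to 424 bp and median scores from 70.74 to 72.03, and on none of the 19 autosomes did the interval of the share with a score of at least 100 exclude the share over all autosomes.

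**Figure D5:**
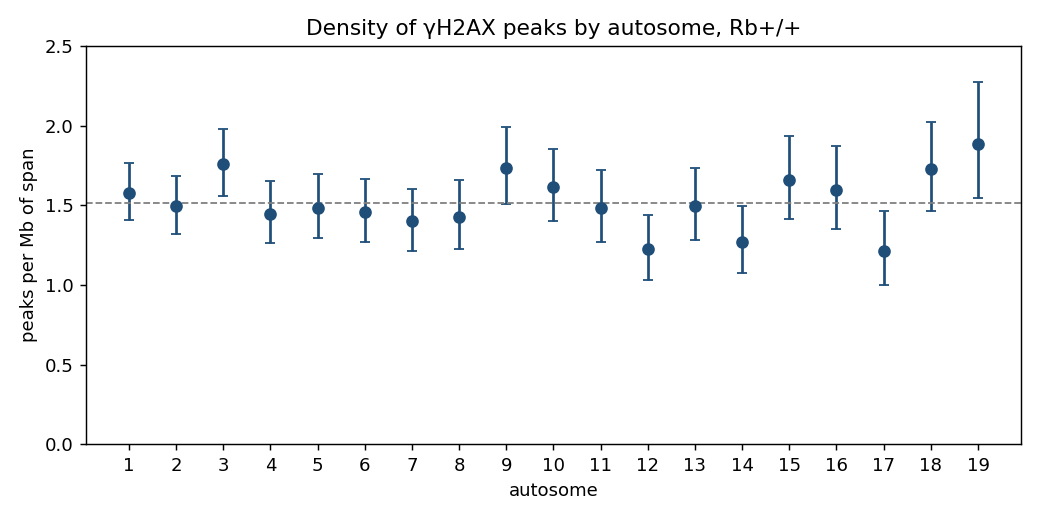
Rb+/+ peaks per Mb of the span between the first and last peak, for each of the 19 autosomes, with exact 95% Poisson intervals (counting error only). The dashed line is the value over all autosomes, 1.51 per Mb. The intervals of chromosomes 3 and 19 lie above it and those of 12, 14 and 17 below it, without adjustment for the 19 comparisons.

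Within chromosomes, the density at the ends was set against that in between. Mouse autosomes carry the centromere at the end from which coordinates are counted. The span begins and ends at a peak, so each end stretch holds at least 1 peak per autosome by construction. Sequence before the first peak is left out, and that peak lay at 7244831 on chromosome 8 and 8647601 on chromosome 14. The first 10 Mb of the span held 282 peaks, 7.81% (6.96 to 8.74) of the total on 7.97% of the span, a density of 1.48 per Mb (1.32 to 1.67). Without the 12 peaks of the chromosome 9 cluster it was 1.42 (1.26 to 1.60). The last 10 Mb, toward the distal telomere, held 321 peaks, 8.89% (7.99 to 9.87) of the total, an interval just above its 7.97% of the span. The density there was 1.69 per Mb (1.51 to 1.88), against 1.501 (1.45 to 1.56) in between. With 20 Mb at each end, the first stretch held 14.7% (13.5 to 15.85) of peaks on 15.95% of the span, at 1.39 per Mb (1.28 to 1.52), and the last held 16.7% (15.5 to 17.9), an interval that includes its share of the span. With 5 Mb both intervals included the share of the span, so each of these differences rests on the length chosen, and none was tested. In the last 10 Mb the interval clears 7.97% so narrowly that, with the bounding peaks counted in, it is not read as an excess. Of 2400 windows of 1 Mb, 1855 (77.3%) held a peak and 58 held 5 or more. The fullest window was that of the chromosome 9 cluster with 12 peaks. The next 5 windows tied at 7 peaks each and began at 117 Mb on chromosome 2, 59 Mb on chromosome 4, 52 Mb on chromosome 8, 49 Mb on chromosome 13 and 4 Mb on chromosome 16. Their highest scores were between 108.63 and 209.32, so none of these 5 was a place of very strong peaks.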

How the data were processed

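The authors deposited whole-number read counts per repeat class and per satellite family, and for the ChIP library a list of peaks with a score each. Per the submitters' processing notes, Bowtie 1.0, MACS 1.4.2 and mm9 were used, in roles and an order that the notes do not state. The sources used here do not say how reads that fit several copies were counted, whether duplicates were removed, or which control and threshold served for peaks. The peak list carries a sample number 1 higher than the labels give; it was assigned by the sample it was deposited with.

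Shares used each library's total and exact (Clopper-Pearson) 95% intervals. Ratios used 95% counting intervals on the log ratio, without a test. Where counts of 1 class or family were set against those of another, the second were taken as fixed. Densities used exact Poisson intervals, and the span from first to last peak stood for chromosome length. The named items were every class and family, the 10 highest and 5 widest peaks, the 5 fullest windows of 1 Mb (6 with ties) and the 3 densest and 3 sparsest autosomes. The chromosome 7 peak, the chromosome 11 peak, the 2 clusters and the reading of the scores as read numbers were chosen after values were seen. Members and lists were chosen with earlier results of these data known. Peak coordinates are counted from 1. Python 3.11.15, numpy 2.4.6, pandas 2.3.3 and scipy 1.17.1 were used. Intervals of class ratios and read numbers were tested on data simulated under the model they assume, with the window width given. Those runs check the computation and not whether the real counts and scores follow the model.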

Additional observations from a re-analysis of the deposited data

Results flagged for a closer look

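The Rb+/+ list also held 248 peaks on chromosome X, which the report's comparisons leave out, and 0 on Y. They were 6.43% (5.68 to 7.25) of all 3857 peaks, and there is no peak list of the input to set them against. Their density was 1.54 per Mb (1.36 to 1.75), their median width 373 bp and their median score 72.03. Of these, 63 scored 100 or more (25.4%, 20.1 to 31.3). The flat mean gave a read number for 212 of the X peaks (85.5%), against 68.6% of autosomal peaks, and this difference was not tested.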

How the results depend on the processing

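Of 99 class and family ratios recomputed under the alternatives, 55 stayed within their interval, 36 moved out of it on the same side of 1 and 8 changed sides. The 55 include 19 from exact conditional intervals, a setting that changes the interval alone and cannot move a ratio. In 6 of the 8 the reported interval excluded 1. They were DNA transposons (1.05), SINEs (1.09) and tandem repeats (1.04) among repeats alone, SINEs (1.01) with the median class ratio set to 1, the unique genome (0.999) without satellites in the total, and SATMIN (1.28) among satellite counts alone. The other 2, whose reported intervals included 1, were LTR retrotransposons (1.07) among repeats and MurSAT1 (1.28) among satellites. The satellite ratio was 0.677 over unique genome counts, 0.759 over repeats alone and 0.705 with the median class ratio set to 1. GSAT_MM stood at 0.658 over unique genome counts, 0.657 without satellites in the total, 0.737 over repeats, 0.971 over satellites and 0.685 with the median set to 1. Over repeats alone Pseudogene was at 6.77 and SATMIN at 0.974. Exact conditional intervals left their 19 ratios as they were by construction, so they are no check on the ratios. With a limit of 5 to 4 in place of 1.1-fold, 2 classes and 3 families remained past it. At a score of at least 100 there were 786 autosomal peaks with a median width of 236 bp; the share past the limit was 39.6% at 75 and 2.72% at 150. The first 5 and 20 Mb held 4.24% and 14.7% of peaks and the last 5 and 20 Mb 4.32% and 16.7%, on 3.99% and 15.95% of the span. Leaving out the chromosome 9 cluster and a tolerance of 0.01 for read numbers were added after the data were seen and moved no value out of its interval. No paired analysis was possible because each side has 1 library. Depth limits the families under 500 counts and the peaks, most of which rest on few reads.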
